A study of Homo sapiens with 4 samples.

Results

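Overexpression-only peaks were the regions of open chromatin that were listed after MORC2 overexpression in HEK293T cells and had no counterpart in the control list. They were chosen from the deposited ATAC-seq peak lists as the nuclear peaks of the overexpression list that did not share a base pair with any control peak. Of 34893 nuclear overexpression peaks, 3315 met this rule and 31578 overlapped a control peak (shared peaks), so that 9.50% of the list was overexpression-only. Because the members were selected on the presence and absence of calls in both lists, their fold, height, width and gaps are given as descriptions, and no test was run on them. The overexpression-only peaks were low and narrow, with a median of 9 fragments at the summit and a median width of 310 bp, and they were spread over every chromosome examined.

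ATAC-seq uses the transposase Tn5, which inserts adapters into DNA that is not covered by nucleosomes or other proteins, so that the fragments pile up over promoters, enhancers and other accessible elements. MORC2 is a nuclear ATPase of the GHKL family that binds and compacts DNA and works with the HUSH complex in silencing chromatin. A peak caller marks a region as open where the pile-up exceeds the level of its surroundings, and a peak therefore depends on both the local signal and the number of fragments sequenced.

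Both groups were HEK293T cells, a widely used line of human embryonic kidney origin that expresses the large T antigen of SV40, and their own MORC2 gene was unedited. The overexpression group (2 libraries) was transfected with wild-type MORC2, fused in the plasmid of the study's methods to a green fluorescent protein (pBacMam-MORC2-meGFP). The control group (2 libraries) received lipofectamine, and the labels do not state whether an empty plasmid was included. The time after transfection is stated in the study's methods and not in the labels. The transfection was transient, the share of cells that took up the plasmid was not given in the sources used here, and no measurement used here reports the level of MORC2 protein. Each group had 1 peak list, read as a call on its pooled libraries, so that no peak has a value per library and there is no replicate check.

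The libraries differed in depth in the same direction as the lists differed in length. In the promoter count table, nuclear promoters held 4928538 and 3674882 counts in control, and 1826842 and 979823 after overexpression, a 3.07-fold difference between the sums of the groups. Mitochondrial promoters held 51.9% and 55.6% of the counts in control and 74.7% and 73.8% after overexpression, and the groups did not overlap in either measure. The parts of depth and of mitochondrial share in the presence of overexpression-only peaks were not tested. Positions below are on the T2T-CHM13 assembly, and the genes and sequences at these positions were not analysed here.

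The height of each peak showed how little signal most of the overexpression-only peaks rested on. MACS, the peak caller used by the authors, writes a fold enrichment, which is the fragments at the summit over a background estimate with 1 added to each, and a −log10 p from the Poisson distribution for the same 2 quantities. The number of fragments at the summit and the background were solved from these columns, and the solution was whole to within 0.001 of the deposited −log10 p for all 3315 overexpression-only peaks. The summits held 6 to 42 fragments, with quartiles of 7 and 10. Shared overexpression peaks had a median of 25 fragments and quartiles of 15 and 44. Summits of 6 to 9 fragments made up 64.4% of the overexpression-only peaks and 7.04% of the shared peaks. At the other end, 69 overexpression-only peaks (2.08%) held 20 fragments or more, compared with 61.7% of the shared peaks.

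The counting error of such summits is wide. A summit of 7 fragments has an exact Poisson 95% interval from 2.81 to 14.4 fragments, and a summit of 9 has an interval from 4.12 to 17.1, both for counting error only. A summit is the highest point of a region that passed the threshold of the peak caller. The Poisson intervals given here and below do not allow for this selection. The most frequent combination of values, found in 422 of the 3315 peaks (12.7%), was 7 fragments on the lowest background of the list, which gave a fold of 3.73 and a −log10 q of 2.33. Many overexpression-only peaks were thus identical in their statistics, and the 3315 peaks held 842 distinct pairs of fold and p.

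The share of overexpression peaks without a control peak fell at each step of summit height. It was 78.2% at 6 fragments (280 of 358 peaks, 95% Wilson interval from 73.7% to 82.2%), 48.3% at 8 fragments (683 of 1413), 24.8% at 10 fragments (359 of 1448) and 6.34% at 15 fragments (67 of 1057). At 20 fragments or more it was 0.353% (69 of 19559, interval from 0.279% to 0.446%). In the control list this share also went down with height, though not at every step. Of its nuclear peaks, 28609 of 59791 (47.9%) had no overexpression peak, and this share went from 96.7% at 9 fragments to 72.0% at 20 fragments and 14.3% at 30 or more. In both lists, therefore, the share of peaks absent from the other list was highest at the lowest summits. The unmatched control peaks were not confined to low summits, with a median of 16 fragments and quartiles of 13 and 23. At equal numbers of fragments the control list held the larger share of unmatched peaks. Equal numbers of fragments were not equal enrichment, since the lowest background was 1.146 fragments in the overexpression list and 2.305 in control. The control list was also matched against the shorter list (34893 against 59791 nuclear peaks). The part of these differences in the shares was not tested.

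**Figure D1:**
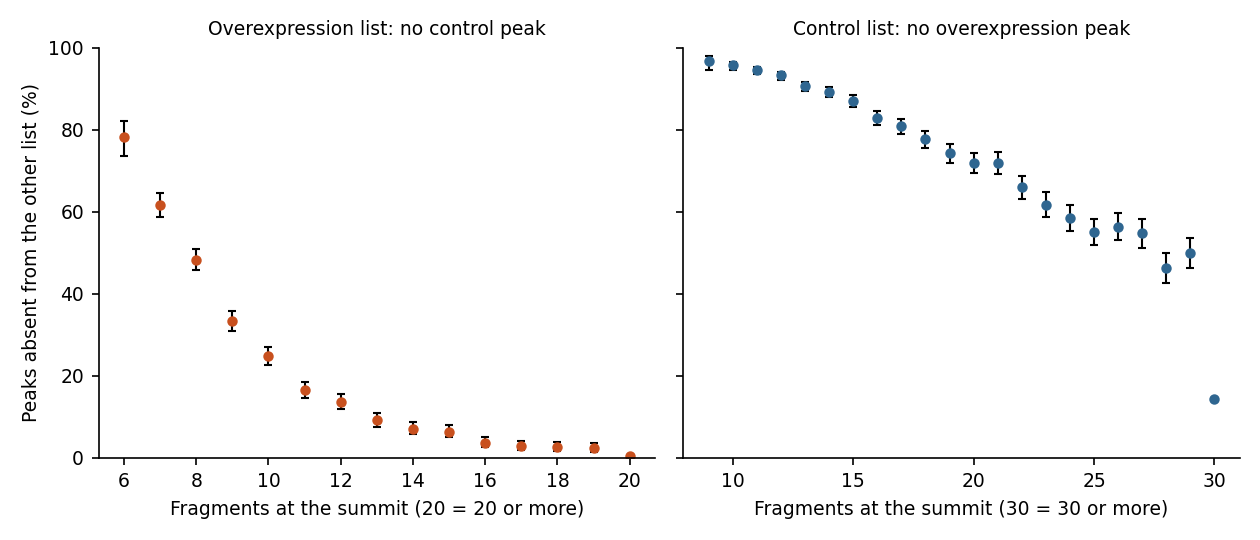
Share of peaks (y axis, %) that overlapped no peak of the other list, by the number of fragments at the summit (x axis), for the overexpression list (left) and the control list (right). Points are shares and bars are 95% Wilson intervals for counting error only. The share fell from 78.2% at 6 fragments to 0.353% at 20 or more in the overexpression list, and from 96.7% at 9 fragments to 14.3% at 30 or more in the control list.

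The background under the overexpression-only peaks was close to the lowest that the list contained. The lowest background, which many peaks of a list share and which is read here as the genome-wide level, was 1.15 fragments in the overexpression list and 2.30 in the control list, a ratio of 2.01 between control and overexpression. The sums of all promoter counts differed by 1.69-fold and those of nuclear promoter counts by 3.07-fold. The genome-wide level is a height of piled-up fragments and the sums are counts in promoters, so that these ratios are of unlike measures. Both lists held mitochondrial peaks, so that mitochondrial fragments were among those given to the peak caller. The sources used here do not state their part in the genome-wide level. Of the overexpression-only peaks, 1415 (42.7%) sat on this level, against 9.18% of the shared peaks, and the median backgrounds were 1.204 and 3.04 fragments. Shared peaks thus had more fragments at the summit and also a higher estimated background.

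In fold over background the overexpression-only peaks ranged from 1.96 to 10.7, with a median of 3.88 and quartiles of 3.55 and 4.49. Only 89 of them (2.69%) exceeded the median fold of the shared peaks, which was 6.49. The −log10 q had a median of 3.08 and quartiles of 2.33 and 4.04. It was under 2 for 480 overexpression-only peaks (14.5%) and for 0.795% of the shared peaks, and it was 5 or more for 365 overexpression-only peaks (11.0%) and for 81.5% of the shared peaks. A −log10 q of 10 or more was reached by 53 overexpression-only peaks.

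The control list also held peaks of such folds, but folds of the 2 lists are not on the same scale. The 1 added to each term weighs more on a genome-wide level of 1.146 fragments (overexpression) than on 2.305 (control). On its own genome-wide level the lowest control peaks held 9 fragments, a fold of 3.03. Of the 3315 overexpression-only peaks, on any background, 3196 (96.4%) had a fold at or above this value. The lowest overexpression peaks on their own genome-wide level held 6 fragments, a fold of 3.26, which was already above 3.03. Every overexpression-only peak on that level thus passed by construction. The share therefore does not show that these peaks were strong enough for a call in control. Of the control peaks, 14344 (23.99%) had a fold no higher than the median of the overexpression-only peaks. Among these 14344, 12704 (88.6%) had no overexpression peak in turn. How many control fragments lay at the positions of the overexpression-only peaks cannot be read from lists of called peaks.

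The overexpression-only peaks were narrow. Their widths ran from 241 to 1098 bp with a median of 310 bp (quartiles 268 and 375 bp), whereas the shared overexpression peaks had a median of 599 bp and reached 3288 bp. The narrowest peak was 241 bp in the overexpression list and 205 bp among the control peaks without a partner. MACS by default sets this smallest width from the average fragment length. Within 100 bp of the smallest width lay 64.1% of the overexpression-only peaks and 18.4% of the shared peaks. Widths over 500 bp were found for 199 overexpression-only peaks (6.003%) and for 60.5% of the shared peaks. In all, the 3315 peaks covered 1113476 bp, which was 4.77% of the bases covered by the list, against 9.50% by number. The control-only peaks were similarly narrow, with a median of 321 bp.

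**Figure D2:**
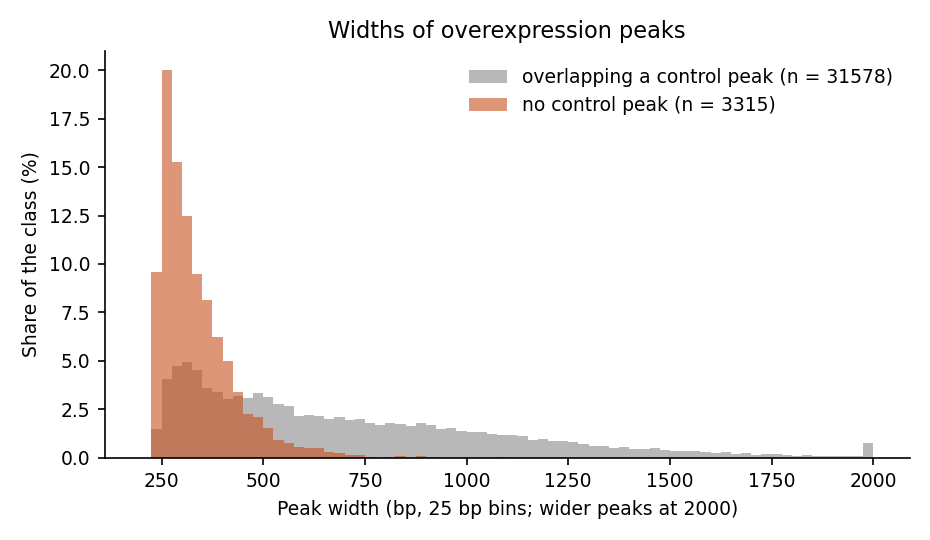
Widths of overexpression peaks (x axis, bp, in bins of 25 bp, with the widest peaks gathered in the last bin) as a share of each class (y axis, %). Peaks with no control peak (orange, n = 3315) crowded near the smallest width of 241 bp with a median of 310 bp, and peaks that overlapped a control peak (grey, n = 31578) had a median of 599 bp.

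The 3 widest overexpression-only peaks were not tall. The widest, chr4:148447500-148448597, was 1098 bp long, had 11 fragments at its summit and a fold of 4.85, and lay 31164 bp from a control peak. The next, chr6:1683968-1684888, was 921 bp long with 12 fragments and a fold of 4.92. The last, chr8:119254631-119255546, was 916 bp long with 10 fragments and a fold of 4.80, and a control peak lay 5194 bp away. These folds were above the upper quartile of the overexpression-only peaks and below the median of the shared peaks.

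The 10 overexpression-only peaks with the highest fold had 18 to 24 fragments at the summit, and 4 of them were on chromosome 4. The highest of all was chr4:116587173-116587480, with 24 fragments (exact Poisson interval from 15.4 to 35.7) on a background of 1.33 and a fold of 10.7. Its nearest control peak was 116073 bp away. The second chromosome 4 peak, chr4:140447173-140447542, had 21 fragments (interval from 13 to 32.1), a fold of 10.2 and a gap of 259568 bp. The peak at chr4:124148035-124148341 had 24 fragments and a fold of 9.95, with a control peak 9037 bp away. The peak at chr4:151190642-151190996 had 21 fragments, a fold of 8.54 and a gap of 23101 bp. All 4 were between 307 and 370 bp wide, near the median width of the whole set.

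Of the remaining 6, 2 were on chromosome 1. The peak at chr1:7506153-7506480 had 24 fragments and a fold of 10.4, and a control peak lay 6722 bp away. The peak at chr1:145782032-145782314 had 18 fragments (interval from 10.7 to 28.5), a fold of 8.85 and a gap of 20594 bp, and shared its fold and p with chr12:25969708-25970026, which was 16520 bp from a control peak. The peak at chr2:228248817-228249157 had 22 fragments, a fold of 9.60 and a control peak only 248 bp away, the smallest gap among the 10. The peak at chr8:56387692-56388049 had 20 fragments and a fold of 9.26, and the peak at chr18:23897352-23897617 had 20 fragments and a fold of 8.91. Even the strongest overexpression-only peak was below 3675 shared peaks in fold.

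Chromosome 4 was represented among the strongest overexpression-only peaks more often than among all of them. It held 8 of the 20 peaks with a fold of 8 or more (40.0%, 95% Wilson interval from 21.9% to 61.3%), 12 of the top 100 (12%, interval from 6.999% to 19.8%) and 144 of all 3315 (4.34%). Among the 9994 shared overexpression peaks with a fold of 8 or more, 438 (4.38%) were on this chromosome. The 8 strong chromosome 4 peaks were not close together, with the outermost at positions 59898289 and 151190996. Chromosome 4 was noticed after the ranking was seen, and the 20 peaks are few, so that this is a count and not a test. The promoters of chromosome 4 held 3.86% and 3.80% of the nuclear promoter counts in control, against 3.76% and 3.57% after overexpression. The promoter share of chromosome 4 was thus lower after overexpression, without overlap of the groups. Such a lack of overlap in the promoter share was found for 12 of the 23 chromosomes (52.2%). The promoter share compares the groups, whereas the count of strong peaks compares chromosomes within the overexpression list. The promoter share therefore does not test the count of strong peaks.

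**Figure D3:**
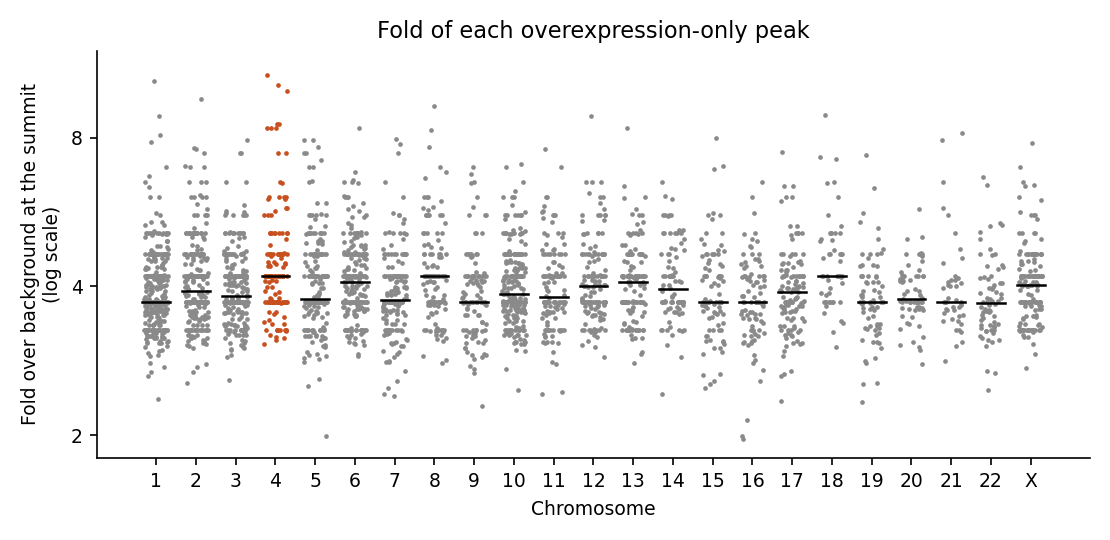
Fold over background at the summit of each of the 3315 overexpression-only peaks (y axis, log scale) by chromosome (x axis, points spread sideways for legibility), with black bars at the median of each chromosome and chromosome 4 in orange. The 8 chromosome 4 peaks with a fold of 8 or more stand above a body of peaks whose median was 4.19, and rows of points at equal folds are peaks with the same whole number of fragments on the genome-wide level.

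The gap from an overexpression-only peak to the nearest control peak had a median of 10716 bp and quartiles of 4478 and 25212 bp. For comparison, the control peaks that overlapped the shared peaks had a median gap of 9715 bp to the next control peak. Gaps over 10 kb were found for 1731 peaks (52.2%) and gaps over 100 kb for 132 (3.98%). The farthest was chr4:28672218-28672500, at 994300 bp from a control peak, with 7 fragments and the most frequent fold of 3.73. The next were chr14:92210596-92211090, at 801334 bp with 10 fragments and a fold of 4.91, and chr12:125991968-125992799, at 450133 bp with 8 fragments and a fold of 4.19. The control-only peaks were farther from the other list, which was also the shorter one, with a median gap of 16564 bp to the nearest overexpression peak.

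**Figure D4:**
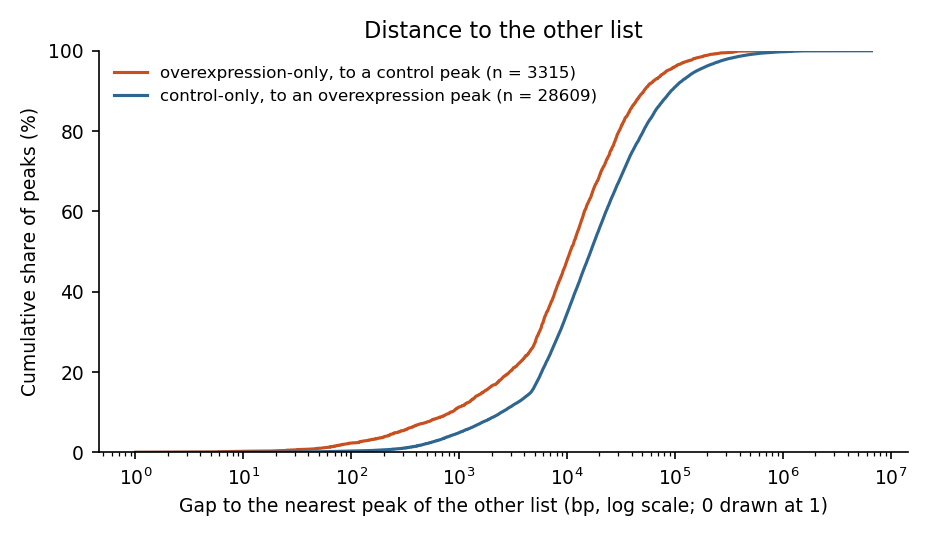
Cumulative share of peaks (y axis, %) by the gap to the nearest peak of the other list (x axis, bp, log scale), for overexpression-only peaks (orange, n = 3315) and control-only peaks (blue, n = 28609). The medians were 10716 and 16564 bp, and both curves steepen at about 5 kb.

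The gaps were not spread evenly around 5 kb. The number of overexpression-only peaks per kb of gap was 172 between 1 and 2 kb, fell to 107 between 3 and 4 kb, and was 170 between 5 and 6 kb. The control-only peaks had the same step, with 628 between 3 and 4 kb and 1243 between 5 and 6 kb. The background of the peak caller moved with this step. Of the overexpression-only peaks with gaps of 1 to 5 kb, 76 of 527 (14.4%, Wilson interval from 11.7% to 17.7%) sat on the genome-wide level, compared with 199 of 570 (34.9%, interval from 31.1% to 38.9%) at gaps of 5 to 9 kb. The median background was 1.65 fragments at gaps of 3 to 4 kb and 1.27 at gaps of 5 to 6 kb. By default MACS raises the background to the local level where the windows of several kilobases around a position hold more fragments, and the part of this setting in the step was not tested.

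Close to control peaks lay 373 overexpression-only peaks (11.3%) with a gap of at most 1 kb, of which 77 had a gap of at most 100 bp. Of the control-only peaks, 4.92% lay within 1 kb of an overexpression peak. These 373 had a median of 10 fragments on a background of 1.69, against 8 fragments on 1.18 for the other 2942. Their median width was 318 bp against 308 bp. For 106 of the 373 (28.4%, Wilson interval from 24.1% to 33.2%), the nearby control peak itself overlapped an overexpression peak. For the other 267 of these peaks (71.6%), the nearby control peak had no overlapping overexpression peak. Each list then had a call within 1 kb but not on the same bases. Among all nuclear control peaks, 47.9% had no overlapping overexpression peak. Beyond 1 kb, the nearest control peak overlapped an overexpression peak for 48.7% of the members. The nearest control peaks of the close members were also low, with a median of 17 fragments and a fold of 4.11, against 23.5 fragments and a fold of 5.63 beyond 1 kb.

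At the limit of the rule, single bases decided membership. The overexpression-only peak chr10:111717442-111717816 touched a control peak with a gap of 0 bp, had 9 fragments and a fold of 3.22. The peaks chr10:51312222-51312488 and chr5:65896185-65896499 had gaps of 2 and 5 bp, with 7 and 9 fragments and folds of 3.73 and 4.66. Just outside the rule, the shared peaks chr14:20361872-20362329, chr7:150660116-150660411 and chr8:129056482-129056740 each overlapped a control peak by 1 bp, with 12, 9 and 11 fragments and folds of 6.06, 3.81 and 3.95.

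Few overexpression-only peaks lay close to each other. Of the 3315, 130 (3.92%) lay within 10 kb of another overexpression-only peak, in 65 groups of 2, and 0 groups held 3 or more. The shared peaks had another shared peak within 10 kb in 33.8% of cases, but they were 31578 in number, and the shares were not adjusted for this difference in density. To the nearest overexpression peak of any class, the median gap was 20539 bp for overexpression-only peaks and 15839 bp for shared peaks. A shared peak lay within 10 kb of 816 overexpression-only peaks (24.6%).

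The leading groups combined a tall peak with a low one or consisted of low peaks. The group with the highest summed fold spanned 6844 bp on chromosome 1 (chr1:44165576-44172419), and its peaks had 20 and 6 fragments with folds of 8.11 and 3.14. The next spanned 6548 bp on chromosome 15 (chr15:25866017-25872564), with 16 and 7 fragments and folds of 7.02 and 3.55. The other 3 leading groups were chr6:114542989-114552264, chr3:32141164-32151662 and chr7:130683447-130689870, whose peaks had 8 to 14 fragments and folds from 4.18 to 5.52. Overexpression-only peaks were found in most windows of 5 Mb. Of the 601 windows with any overexpression peak, 563 held an overexpression-only peak. Of the 521 windows with at least 20 overexpression peaks, 512 held one, and no window of the genome held more than 19. At the share of 9.50% in the whole list, most windows with that many peaks can be expected to hold at least 1. The highest share was in chrX:120000001-125000000, where 11 of 30 overexpression peaks (36.7%) had no control peak, against a median of 9.52% over the windows.

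The share of overexpression peaks without a control peak varied by chromosome. Chromosome 13 had the highest share, 136 of 954 peaks (14.3%, Wilson interval from 12.2% to 16.6%), followed by chromosome 10 with 236 of 1929 (12.2%, interval from 10.9% to 13.8%) and the X chromosome with 157 of 1299 (12.1%, interval from 10.4% to 14.0%). Chromosome 19 had the lowest, 73 of 1610 (4.53%, interval from 3.62% to 5.66%). The chromosomes also differed in how many of their overexpression peaks were low. Summits of 6 to 9 fragments were found for 230 of the 954 peaks of chromosome 13 and 257 of the 1929 of chromosome 10. They were found for 222 of the 1299 peaks of the X chromosome and 68 of the 1610 of chromosome 19. The part of summit height in the chromosome shares was not tested. The intervals of chromosomes 3, 5, 10, 13 and X lay above the share of the whole list, and those of chromosomes 11, 16, 17 and 19 below it. The intervals cover counting error only, and each chromosome has 1 value.

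**Figure D5:**
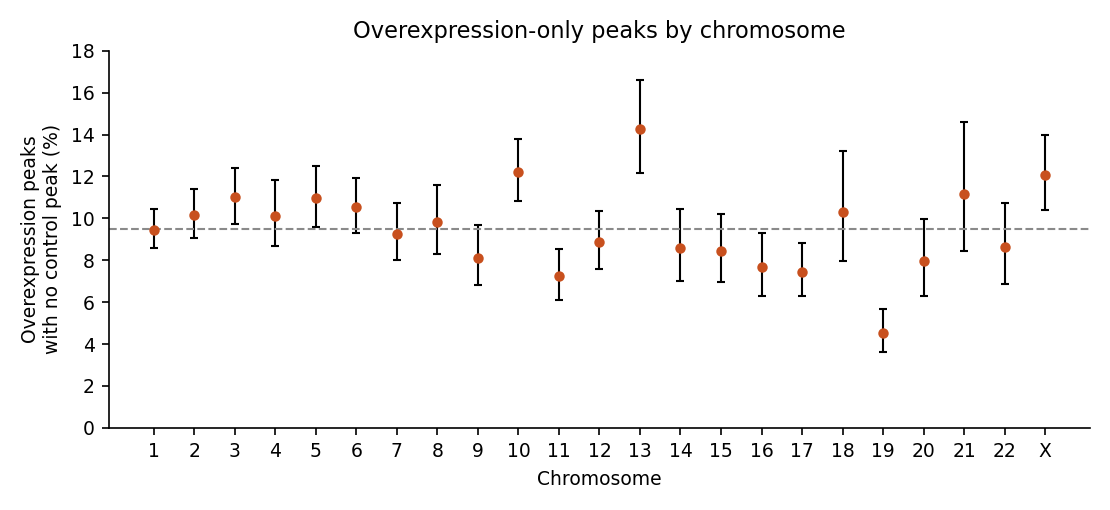
Share of the overexpression peaks of each chromosome (x axis) that overlapped no control peak (y axis, %), with 95% Wilson intervals for counting error only and a dashed line at the share of all nuclear peaks, 9.50%. Chromosome 13 was highest at 14.3% and chromosome 19 lowest at 4.53%.

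Across the 23 chromosomes, the share was lower where the count table had more promoters per overexpression peak (Pearson's r of −0.73, Spearman's rho of −0.66) and higher where the control list had more peaks per overexpression peak (r of 0.78, rho of 0.72). These are descriptions over points that come from the same libraries. In each pair the number of overexpression peaks is the denominator of both measures, and the last pair also uses the same lists in both. Chromosome 13 had 2.24 control peaks for each overexpression peak, the highest ratio, and chromosome 19 had 1.47, the lowest. In a comparison chosen after the data were seen, only overexpression peaks with 6 to 9 fragments were counted, of which 49.0% had no control peak. Heights within this range were not equalised between chromosomes. Among these, chromosome 13 stood at 44.4% (interval from 38.1% to 50.8%) and chromosome 19 at 50.0% (interval from 38.4% to 61.6%). The correlation of this share with promoters per peak was 0.045 (rho of 0.21). With control peaks per overexpression peak it was −0.088 (rho of 0.0049). Chromosome 10 lay above the value of all chromosomes in this range, at 60.3% (interval from 54.2% to 66.1%), chromosome 22 reached 69.8%, and chromosomes 4 and 8 lay below it at 41.7% and 41.4%.

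The promoter counts gave a measure by library for the leading chromosome. Promoters of chromosome 13 held 2.07% and 2.04% of the nuclear promoter counts in control, against 2.06% and 1.94% after overexpression. The means were 2.06% ± 0.016 in control and 2.00% ± 0.084 after overexpression (SD, n = 2 each), and the ranges overlapped. With 2 libraries against 2, no exact permutation test can give a p below 0.333, and none was run. For chromosome 19 the shares were 5.74% and 5.76% in control and 5.64% and 6.10% after overexpression, which also overlapped. Across chromosomes, the share of overexpression-only peaks and the log2 ratio of promoter count shares (overexpression over control) had an r of −0.58 and a rho of −0.64. This relation rested on the promoter counts of overexpression replicate 2, the shallowest library. Without them, r was −0.10 and rho −0.11, and without each of the other libraries in turn r was between −0.51 and −0.68. This check was chosen after the data were seen and recomputed only the promoter ratio. The shares of overexpression-only peaks stayed those of the lists per group, from which no library could be left out.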

How the data were processed

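ATAC-seq libraries of 4 HEK293T samples (2 control, 2 overexpression, grouped by their labels) were analysed from the authors' files. According to the methods and labels, the authors trimmed reads, aligned them with Bowtie2 to T2T-CHM13, retained proper pairs above a mapping quality minimum, removed duplicates with Picard and called peaks with MACS2 in paired-end mode with default options. No shift for the Tn5 offset was described. The deposited peak lists give a fold enrichment (a ratio over background), −log10 p and −log10 q values and an integer score, which was not needed. The deposited promoter table holds whole-number counts per Entrez gene.

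Overlap meant at least 1 bp. Here, summit fragments k and background λ were solved from fold = (k + 1)/(λ + 1) and the Poisson −log10 p, a step tested on simulated data. Chromosomes of 28763 of 28775 promoters came from RefSeq identifiers, with no coordinates used. Shares carry 95% Wilson intervals. Python 3.11.15, pandas 2.3.3 and scipy 1.17.1 were used. Named peaks were the 10 highest by fold, the 3 widest, the 3 farthest from control peaks, the 3 nearest on either side of the rule, and the 5 leading groups within 10 kb. The members, this naming rule and all comparisons were chosen with earlier results of these data known. A planned edgeR test of promoters near members was not run, since gene positions on T2T-CHM13 were not used here. The 5 mitochondrial peaks of the overexpression list lie outside the rule.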

Additional observations from a re-analysis of the deposited data

How the results depend on the processing

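The set changed with the threshold and the definition of overlap. The values that follow are, in order, the number of overexpression-only peaks, their median fold, median width, median gap, the number within 1 kb of a control peak and the number within 10 kb of another, which were 3315, 3.88, 310 bp, 10716 bp, 373 and 130. With a −log10 q of at least 3 in the overexpression list they were 1727, 4.43, 316 bp, 11409 bp, 185 and 16. With at least 5 they were 365, 5.59, 319 bp, 12638 bp, 33 and 0, and with at least 5 in both lists 530, 5.59, 335 bp, 14903.5 bp, 28 and 6. When an overlap of 50% of both peaks was needed they were 7475, 4.19, 335 bp, 0 bp, 4533 and 1329. When the overexpression summit had to lie in a control peak, the width was 317 bp, the gap 7852 bp and the number within 1 kb 1015. With control peaks widened by 500 bp the gap was 12074 bp and the number within 1 kb 125, which follows from the widening. With equal numbers of top-ranked peaks the set held 6530 peaks with a fold of 4.08, a width of 328 bp, a gap of 19240 bp and 578 within 10 kb of another. In 8 other cases the values for these 6 measures were within 1.5 times (counts) or within the 95% interval of the median.

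The highest share on a chromosome (14.3%, chromosome 13) was 27.9% with the 50% overlap and 28.3% with equal numbers of peaks, both on chromosome 13. It was 2.45% on chromosome 4 (26 of 1061) with a −log10 q of at least 5, and 69.8% on chromosome 22 (37 of 53) with summits of 6 to 9 fragments, a setting chosen after seeing the data. The difference in the chromosome 13 promoter share (overexpression minus control, −0.059 points) ran from −0.12 to 0.00050 points without each library in turn, the latter without overexpression replicate 2, and was −0.066 points with at least 10 counts in every library.

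Leaving out a library was not possible for the peak lists, which exist only per group. No paired analysis was possible because the peak results come from lists without replicates and from no test. The edgeR result near members and its alternatives (replicate block, DESeq2, size factors, no filter, single libraries left out) were not run. Depth limits these values: at summits of 6 to 9 fragments the exact Poisson intervals span from 2.20 to 17.1 fragments.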

Other observations

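The overexpression list held 5 mitochondrial peaks, and 0 of them lacked an overlapping control peak. The summit lay at a median of 44.5% of the peak's width from its start in the overexpression-only peaks and at 49.1% in the shared peaks.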
